A study of Mus musculus with 16 samples.

Results

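The 9 genes described here encode the transcription factors that define the cardiac lineage: Gata4, Gata6, Mef2a, Mef2c, Mef2d, Nkx2-5, Tbx5, Tbx20 and Hand2. They were taken by name from the 55573 genes of the count table, and all 9 had enough reads to be among the 16857 genes tested. Their mRNA was measured by poly(A) RNA-Seq in the apex of the heart of 16 male wild-type mice, 4 in each of 4 groups. Pups received AAV9-cTNT-GFP or AAV9-cTNT-CARDINAL subcutaneously on postnatal day 1, underwent sham or transverse aortic constriction (TAC) surgery at a body weight of 25 to 30 g, and were sampled 4 weeks later. AAV9 is an adeno-associated virus that enters heart muscle well, and the cTNT (cardiac troponin T) promoter limits its cargo to cardiomyocytes, so other heart cells were not meant to express it. The cargo was either GFP, the control, or Cardinal, a cardiac long noncoding RNA named Gm12295 in mouse annotation. TAC narrows the aorta and loads the left ventricle with pressure, whereas sham animals had the same operation without the ligature. Groups are named by virus and surgery (for example AAV9-GFP sham, or AAV9-Cardinal TAC), and mice are named by the replicate numbers of the submitters.

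All 9 are protein-coding genes of the mouse (GENCODE M21, GRCm38). Gata4 (ENSMUSG00000021944) at chr14:63198922-63271692 on the minus strand and Gata6 (ENSMUSG00000005836) on chromosome 18 are the GATA factors. The MEF2 factors are Mef2a (ENSMUSG00000030557) at chr7:67231163-67372858 on the minus strand, Mef2c (ENSMUSG00000005583) at chr13:83504034-83667080 on the plus strand, and Mef2d (ENSMUSG00000001419) at chr3:88142372-88172086 on the plus strand. The homeodomain factor is Nkx2-5 (ENSMUSG00000015579) at chr17:26838664-26845009 on the minus strand. The T-box factors are Tbx5 (ENSMUSG00000018263) at chr5:119832668-119885219 on the plus strand, and Tbx20 (ENSMUSG00000031965) at chr9:24718138-24774303 on the minus strand. The helix-loop-helix factor is Hand2 (ENSMUSG00000038193) at chr8:57320983-57324633 on the plus strand. The table gives 1 count per gene, so isoforms were not separated.

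These factors bind DNA through different domains and act together on shared enhancers of cardiac genes. GATA4 and GATA6 are zinc finger proteins, the MEF2 proteins are MADS-box factors held in check by class IIa histone deacetylases, NKX2-5 is a homeodomain protein, TBX5 and TBX20 are T-box proteins, and HAND2 is a basic helix-loop-helix protein that reads E-boxes. In the adult ventricle they keep contractile, conduction and natriuretic peptide genes active, and GATA4 and the MEF2 factors are known mediators of the hypertrophic response. Several are not restricted to cardiomyocytes: cardiac fibroblasts also transcribe Gata4, Tbx20 and Hand2, and endothelial cells transcribe Mef2c.

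Libraries held 16441997 to 21904589 counts. Mitochondrially encoded genes took 32.2% to 34.0% of the counts in the sham mice and 30.3% to 31.9% in the TAC mice, without overlap. The summed level of 8 cardiomyocyte markers was 42500 to 43400 CPM (normalized counts per 1000000 of a library) in AAV9-GFP sham, 30900 to 37300 in AAV9-GFP TAC, 40600 to 44900 in AAV9-Cardinal sham and 37500 to 41700 in AAV9-Cardinal TAC, so the markers of the labelled tissue were high in every library. The sum of 8 fibroblast markers was 519 to 588 CPM in AAV9-GFP sham, 904 to 1170 in AAV9-GFP TAC and 505 to 564 in AAV9-Cardinal sham. In AAV9-Cardinal TAC it was 990 CPM in mouse 1 and 530 to 573 CPM in the other three. Mouse 1 of AAV9-Cardinal TAC therefore stood with the AAV9-GFP TAC mice on this measure, and the changes with TAC named for its group are also given without it. That mouse was singled out by a measure that itself changed with TAC. Fits without it therefore show dependence on 1 mouse and are not separate support. Endothelial markers summed to 782 to 906, 880 to 1080, 789 to 851 and 857 to 1080 CPM in the same order of groups. Macrophage markers summed to 152 to 226 CPM, mural markers to 582 to 831 CPM and red cell genes to 348 to 1040 CPM over all libraries, and lymphocyte markers reached at most 0.899 CPM. The atrial markers Sln, Bmp10 and Myl7 had at most 11 counts in any library. Gm12295 lay between 18.3 and 93.9 CPM in the 8 mice given the Cardinal virus and between 3.42 and 7.24 CPM in the 8 given GFP. The highest level, 93.9 CPM, was that of mouse 1 of AAV9-Cardinal TAC. In bulk tissue a lower level can come from fewer cells of a type or from less RNA in each cell, and these cannot be told apart here.

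All 9 factors were well measured, and their order by level per length was similar in the 4 groups. On the RPKM scale (CPM divided by the summed exon length in kilobases), the AAV9-GFP sham means ± SD (n = 4) were 30.9 ± 9.04 for Hand2 and 22.7 ± 0.596 for Mef2d. Gata4 followed with 16.5 ± 1.05 and Nkx2-5 with 15.7 ± 0.847. The next in order were Mef2a at 11.6 ± 0.722, Gata6 at 6.54 ± 0.31 and Tbx20 at 6.38 ± 0.512. Tbx5 at 4.03 ± 0.926 and Mef2c at 3.48 ± 0.322 were lowest. Ranges of the 4 mice overlapped between Hand2 and Mef2d, between Gata4 and Nkx2-5, between Gata6 and Tbx20, and between Tbx5 and Mef2c, so the order within these pairs was not resolved. Among all tested genes these levels ran from percentile 61.3 (Mef2c) to percentile 94.9 (Hand2). Dividing by the longest annotated transcript instead raised Mef2a from 11.6 to 30.7 RPKM and from rank 5 to rank 2, and Mef2c from 3.48 to 8.72. Both genes have alternative exons, which the summed length counts in full. This second length was chosen after the data were seen. With TAC, Tbx20 moved from rank 7 to rank 5 in AAV9-GFP and from rank 7 to rank 6 in AAV9-Cardinal.

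**Figure D1:**
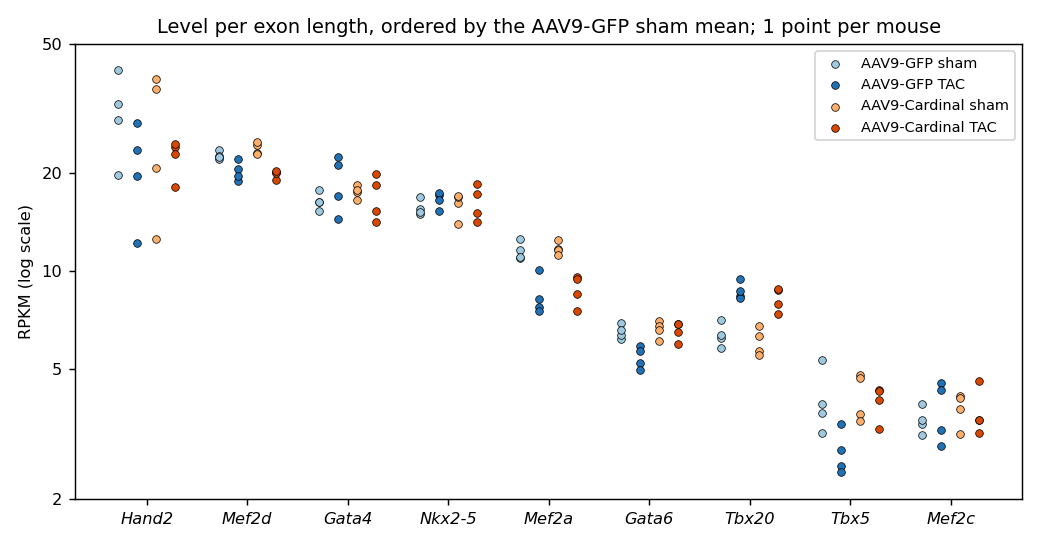
RPKM of each factor (log scale) with 1 point per mouse, colored by group and ordered by the AAV9-GFP sham mean. Hand2 covers the widest span in every group but AAV9-Cardinal TAC, and Tbx20 sits higher in both TAC groups than in both sham groups.

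To ask which factors changed under pressure overload, TAC was compared with sham within each virus, with edgeR's quasi-likelihood test and Benjamini-Hochberg adjusted p-values over all tested genes. In AAV9-GFP hearts 5 of the 9 factors passed an adjusted p of 0.05: Tbx20 rose, and Mef2a, Mef2d, Gata6 and Tbx5 fell. Of all tested genes 17.4% passed, 8.49% higher and 8.92% lower, against 1 and 4 of the 9 factors. The 4 TAC and 4 sham mice did not overlap for 4 of these factors (all but Tbx5), as they did not for 20.3% of all genes. In AAV9-Cardinal hearts 3 of the 9 passed: Tbx20 rose, and Mef2a and Mef2d fell. The background there was 6.48% of genes, 3.1% higher and 3.38% lower. The same 3 factors were those without overlap, against 13.7% of all genes. The median log2 fold change of the 9 was -0.16 in AAV9-GFP and -0.05 in AAV9-Cardinal, beside 0.01 and 0.00 over all tested genes. The 9 were chosen with earlier results of these data known, so these shares and medians describe the list and do not test it. Gata4, Mef2c, Nkx2-5 and Hand2 passed in neither comparison. Without mouse 1 of AAV9-Cardinal TAC their log2 fold changes in AAV9-Cardinal were -0.09, -0.16, -0.01 and -0.31, and none passed.

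**Figure D2:**
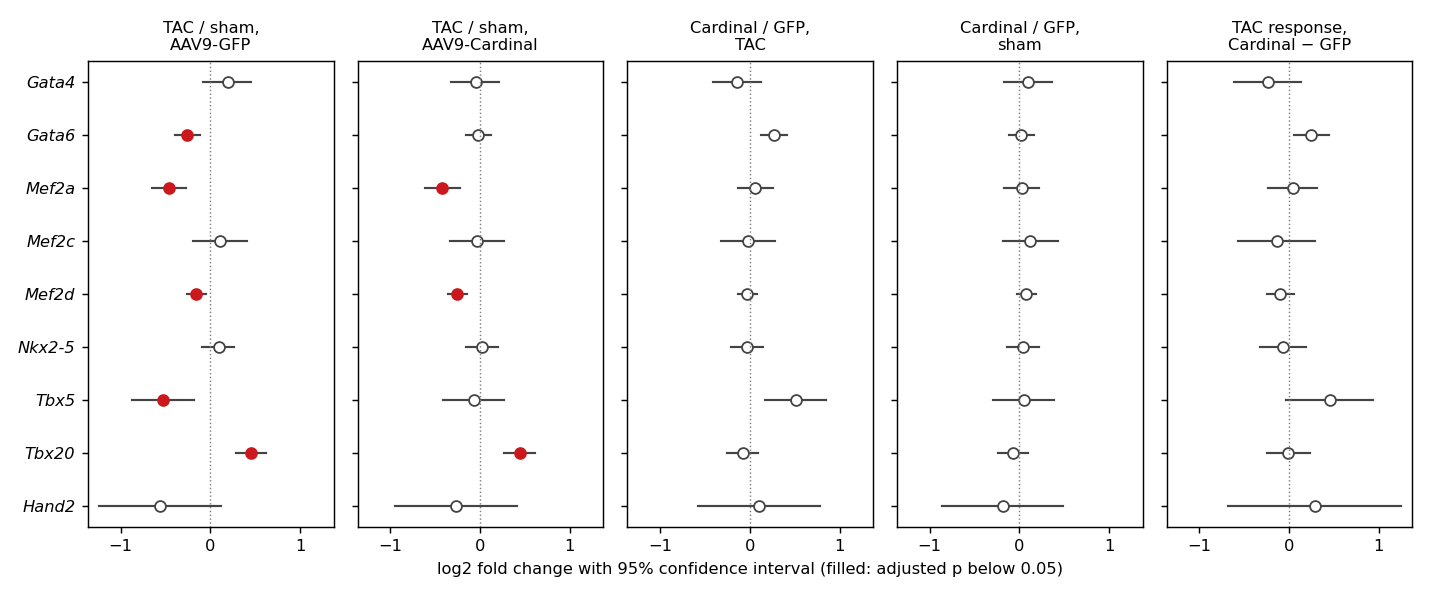
Fitted log2 fold change of each factor (points) with its 95% confidence interval (lines) in the 4 comparisons and in the difference between the responses to TAC. Filled points have an adjusted p below 0.05, and Mef2a, Mef2d and Tbx20 are filled in both TAC comparisons while none is filled in the other panels.

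In the MEF2 group Mef2a and Mef2d fell with TAC under both viruses and Mef2c did not pass. Mef2a had the highest mean count of the family in each group. It measured 185, 162, 171 and 163 CPM in the AAV9-GFP sham mice and 148, 114, 121 and 111 CPM in the AAV9-GFP TAC mice. In AAV9-Cardinal it measured 172, 184, 171 and 164 CPM after sham and 141, 139, 125 and 111 CPM after TAC. Every TAC mouse lay below every sham mouse, whichever virus it carried. The log2 fold change was -0.46 (SE 0.09, adjusted p = 0.0027), or a level that fell by 27.3%, in AAV9-GFP and -0.42 (SE 0.09, adjusted p = 0.015), or fell by 25.3%, in AAV9-Cardinal. Without AAV9-Cardinal sham mouse 2 or AAV9-Cardinal TAC mouse 5 the latter adjusted p was 0.053 and 0.051. Without AAV9-Cardinal TAC mouse 1 it was 0.012.

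Mef2d, which interacts with the class IIa deacetylases and with calcium signaling as Mef2a does, fell less. Its values were 141, 133, 136 and 134 CPM in AAV9-GFP sham and 133, 124, 114 and 117 CPM in AAV9-GFP TAC. AAV9-Cardinal mice had 146, 138, 137 and 149 CPM after sham and 121, 114, 120 and 122 CPM after TAC. In AAV9-GFP the highest TAC mouse and the lowest sham mouse were both near 133 CPM without crossing, and in AAV9-Cardinal the groups were well apart. The log2 fold changes were -0.16 (SE 0.05, adjusted p = 0.038) and -0.26 (SE 0.05, adjusted p = 0.0084), or levels that fell by 10.4% and fell by 16.4%. Without mouse 1 of AAV9-Cardinal TAC the change in AAV9-Cardinal was again -0.26 (adjusted p = 0.013). The AAV9-GFP call for Mef2d rested on single mice. Leaving out any AAV9-GFP sham mouse, or TAC mouse 3, 4 or 7, gave adjusted p-values from 0.056 to 0.12 with log2 fold changes from -0.17 to -0.12. A fit on the 8 AAV9-GFP mice alone gave an adjusted p of 0.094. Of Mef2d's summed exon length 8.87% is shared with 1700113A16Rik on the opposite strand, but that gene had 66 counts in all libraries against 44375 for Mef2d.

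Mef2c, the member needed for the early looping heart, did not pass. AAV9-GFP sham mice had 61.4, 53.3, 49.3 and 54.9 CPM and AAV9-GFP TAC mice 71.1, 67.7, 45.6 and 51.1 CPM. The TAC values lay on both sides of the sham values, with a log2 fold change of 0.11 (95% interval -0.20 to 0.41, adjusted p = 0.68). In AAV9-Cardinal it was -0.04 (interval -0.34 to 0.27, adjusted p = 0.92). Since Mef2a and Mef2d fell, the makeup of the family shifted: per length, Mef2a made up 30.6% ± 0.717 (SD, n = 4) of the 3 members in AAV9-GFP sham and 25.8% ± 1.84 after TAC, and 29.9% ± 1.37 and 27.1% ± 2.31 in AAV9-Cardinal. Mef2c made up 9.21% ± 0.592 and 11.5% ± 1.58 in AAV9-GFP, and 9.61% ± 1.05 and 11.4% ± 1.43 in AAV9-Cardinal. Mef2d made up 60.2% to 62.7% in the group means. The shares depend on the length used: with the longest transcript Mef2a made up 47.5% ± 0.859 in AAV9-GFP sham and 41.1% ± 2.55 after TAC, and 46.5% ± 1.3 and 42.6% ± 2.72 in AAV9-Cardinal, and Mef2d 39.0% to 41.7%, so which of the 2 is the larger was not resolved. The mean Mef2a share was lower after TAC with either length. Summed over the 3 members the level was 37.8 ± 1.56 RPKM in AAV9-GFP sham and 32.5 ± 3.11 in AAV9-GFP TAC, and 39.4 ± 0.844 and 32.4 ± 1.3 in the AAV9-Cardinal groups. These shares and sums were not tested.

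**Figure D3:**
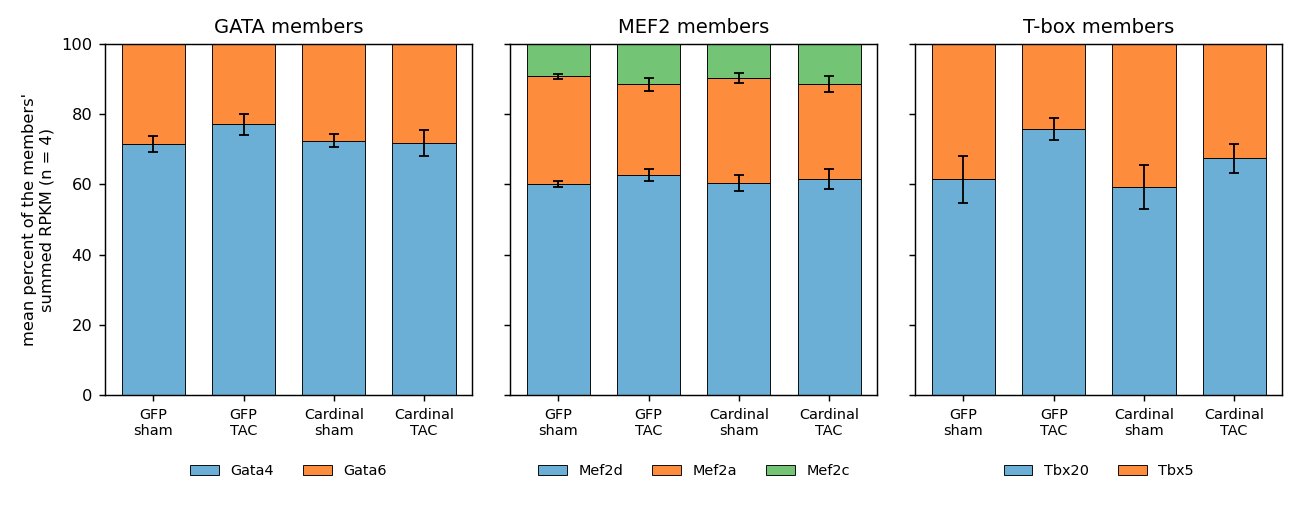
Mean share of each factor in the summed RPKM of the GATA, MEF2 and T-box members described here, in percent, in the 4 groups (n = 4, error bars SD, drawn at the upper edge of a segment). The Tbx20 segment is larger in both TAC groups than in the sham group of the same virus, whereas the Gata4 segment is 77.1% in AAV9-GFP TAC and 71.5% to 72.5% in the other groups.

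Tbx20, a T-box factor required for adult cardiomyocyte function that acts as an activator and a repressor, was the 1 factor that rose. AAV9-GFP sham mice had 70.0, 74.9, 76.8 and 84.8 CPM and AAV9-GFP TAC mice 101, 114, 99.2 and 104 CPM. AAV9-Cardinal sham mice had 68.1, 66.4, 81.8 and 76.2 CPM and AAV9-Cardinal TAC mice 106, 89.1, 95.2 and 106 CPM. All 8 TAC mice lay above all 8 sham mice. The log2 fold change was 0.45 (SE 0.08, adjusted p = 0.0014) in AAV9-GFP and 0.44 (SE 0.08, adjusted p = 0.0064) in AAV9-Cardinal, or 1.37-fold and 1.36-fold. Without AAV9-Cardinal TAC mouse 1 the latter was 0.41 (adjusted p = 0.013). The difference between the responses was -0.01 (95% interval -0.25 to 0.23), which leaves out changes beyond these bounds.

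Tbx5, which works with NKX2-5 and GATA4 on conduction and contractile genes, moved the other way in AAV9-GFP. Its values were 25.0, 18.3, 14.9 and 17.2 CPM in AAV9-GFP sham and 15.9, 13.2, 11.8 and 11.3 CPM in AAV9-GFP TAC. AAV9-Cardinal mice had 22.5, 22.1, 17.1 and 16.3 CPM after sham and 15.3, 20.2, 18.9 and 20.0 CPM after TAC. The AAV9-GFP groups overlapped by the highest TAC mouse and the lowest sham mouse, and the AAV9-Cardinal groups overlapped broadly. The log2 fold change was -0.53 (SE 0.16, adjusted p = 0.034) in AAV9-GFP and -0.07 (SE 0.16, adjusted p = 0.87) in AAV9-Cardinal. Without AAV9-Cardinal TAC mouse 1 the latter was 0.02 (adjusted p = 0.97). The AAV9-GFP call was lost without sham mouse 1 or 2 or TAC mouse 3, 4 or 7 (adjusted p from 0.060 to 0.12). Without sham mouse 1, the highest of all 16, the log2 fold change was -0.36. It was also lost with no filter on low counts (adjusted p = 0.055) and in a fit on the 8 mice alone (0.066). The share of Tbx5 in the summed RPKM of Tbx5 and Tbx20 was 38.5% ± 6.65 in AAV9-GFP sham and 24.2% ± 3.14 in AAV9-GFP TAC, and 40.6% ± 6.26 and 32.6% ± 4.04 in AAV9-Cardinal.

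Upstream sequences are shown for the 3 factors that passed in both TAC comparisons, so that the region in front of their start sites can be read beside their response. Windows of 250 bases before to 50 after a start (RefSeq, GRCm38.p6) were at hand for 6 of the 9 factors, 8 windows in all, and the RefSeq starts of these 3 genes match transcripts in the GENCODE annotation. The runs below read 5′ to 3′ on the gene's own strand, in lower case, and capitals mark a MEF2 element. They lie at chr7:67372851-67373108, strand - (Mef2a, the 250 bases before the start and the first 8 transcribed), chr3:88142122-88142371, strand + (Mef2d, 250 bases) and chr9:24774304-24774553, strand - (Tbx20, 250 bases).
Mef2a: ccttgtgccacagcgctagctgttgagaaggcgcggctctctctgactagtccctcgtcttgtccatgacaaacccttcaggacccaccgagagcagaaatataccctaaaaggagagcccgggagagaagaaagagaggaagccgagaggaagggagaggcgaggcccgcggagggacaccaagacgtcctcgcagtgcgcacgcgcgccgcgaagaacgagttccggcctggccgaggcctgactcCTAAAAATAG
Mef2d: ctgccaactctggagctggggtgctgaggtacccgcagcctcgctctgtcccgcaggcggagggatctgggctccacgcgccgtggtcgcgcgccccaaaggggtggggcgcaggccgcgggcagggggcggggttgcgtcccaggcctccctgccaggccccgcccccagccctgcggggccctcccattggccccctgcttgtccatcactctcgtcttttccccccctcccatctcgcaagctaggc
Tbx20: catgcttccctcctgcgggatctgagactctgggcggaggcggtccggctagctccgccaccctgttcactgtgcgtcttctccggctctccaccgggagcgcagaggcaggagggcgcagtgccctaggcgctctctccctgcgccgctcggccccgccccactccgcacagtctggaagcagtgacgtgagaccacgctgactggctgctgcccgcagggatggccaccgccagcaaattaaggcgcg
The Mef2a run ends in a MEF2 element across the start, the kind of site that MEF2 proteins bind, and 3.19% of all 32851 windows hold 1. The windows of Mef2d and Tbx20 held none of the motifs searched on both strands: the GATA motif (AGATAA, in 11.2% of all windows), the NKX2-5 motif (TNAAGTG, 11.5%), the T-box motif (AGGTGT, 13.7%), the E-box (CANNTG, 72.3%), the MEF2 element and the CArG box (1.63%). No E-box lay in the Mef2a window either. GC content over the 300 bases was 62.3% for Mef2a, 72.0% for Mef2d and 68.3% for Tbx20, beside a median of 52.7% over all windows. Among the other windows, Hand2 had a GATA motif and E-boxes, 1 of 3 Mef2c windows had a T-box motif, and Nkx2-5 and both other Mef2c windows had an E-box. A match is a stretch of letters and not a measured binding site.

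Of the GATA factors, Gata6 fell in AAV9-GFP hearts. GATA4 and GATA6 share much of their DNA recognition and overlap in function in the adult myocardium. Gata6 measured 45.1, 40.4, 41.6 and 43.1 CPM in AAV9-GFP sham and 38.4, 34.2, 32.5 and 37.0 CPM in AAV9-GFP TAC, and the groups did not overlap. In AAV9-Cardinal it measured 39.8, 45.9, 44.4 and 43.1 CPM after sham and 38.8, 44.9, 42.4 and 45.0 CPM after TAC, with the ranges nearly the same. The log2 fold change was -0.26 (SE 0.07, adjusted p = 0.013), or fell by 16.6%, in AAV9-GFP, and -0.02 (95% interval -0.16 to 0.12, adjusted p = 0.93) in AAV9-Cardinal, where it was 0.03 (adjusted p = 0.84) without TAC mouse 1. The AAV9-GFP call held without any single mouse but was lost with the replicate number as a block (-0.28, adjusted p = 0.07). The AAV9-GFP TAC hearts also had lower summed cardiomyocyte markers and higher summed fibroblast markers (above), and the part of these in the result was not tested.

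Gata4, a central activator of hypertrophic genes, did not pass in either virus. Sham and TAC mice of AAV9-GFP had 59.7, 69.7, 63.8 and 64.1 CPM and 82.8, 87.3, 56.5 and 66.3 CPM. In AAV9-Cardinal the values were 71.9, 68.5, 64.9 and 69.4 CPM and 71.9, 55.5, 59.9 and 77.6 CPM. The spread was wider after TAC, with a coefficient of variation of 19.6% against 6.35% in AAV9-GFP and 15.5% against 4.26% in AAV9-Cardinal, which was not tested. The log2 fold changes were 0.19 (95% interval -0.08 to 0.45, adjusted p = 0.35) and -0.05 (interval -0.32 to 0.21, adjusted p = 0.87). Nkx2-5, the earliest homeodomain marker of heart muscle, was the steadiest in its means. It ranged from 25.9 to 29.1 CPM and from 26.3 to 29.8 CPM in AAV9-GFP sham and TAC, and from 24.1 to 29.5 CPM and from 24.4 to 32.0 CPM in the AAV9-Cardinal groups. Its log2 fold changes were 0.09 (interval -0.09 to 0.26, adjusted p = 0.56) and 0.02 (interval -0.16 to 0.20, adjusted p = 0.94). Both intervals exclude a change as large as that of Mef2a.

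Hand2, which shapes the right ventricle in the embryo, had the largest coefficient of variation of the 9 in every group but AAV9-Cardinal TAC, where it was 13% beside 16.7% for Mef2c. It measured 46.5, 76.9, 97.9 and 68.8 CPM in AAV9-GFP sham and 46.0, 55.5, 67.0 and 28.6 CPM in AAV9-GFP TAC. In AAV9-Cardinal it measured 29.6, 49.0, 91.8 and 85.6 CPM after sham and 56.8, 57.8, 42.8 and 54.1 CPM after TAC. The coefficient of variation reached 46.4% in AAV9-Cardinal sham, where the highest mouse had over 3 times the level of the lowest. The log2 fold change was -0.56 (SE 0.32, 95% interval -1.24 to 0.12, adjusted p = 0.27) in AAV9-GFP and -0.27 (SE 0.32, interval -0.95 to 0.41, adjusted p = 0.69) in AAV9-Cardinal. Both intervals include a fall as large as that of Mef2a, but not a rise as large as that of Tbx20. Hand2 shares 461 exon bases, 19.61% of its length, with the antisense RNA Hand2os1, which had 20998 counts in all libraries against 20125 for Hand2. Whether reads were counted by strand is not given in the sources used here, so Hand2 values are uncertain to that extent. Hand2os1 averaged 67.0 ± 12.3, 49.3 ± 6.37, 66.3 ± 19.3 and 65.5 ± 7.01 CPM (SD, n = 4) in the sham and TAC groups of AAV9-GFP and then of AAV9-Cardinal, and was not called in either TAC comparison (adjusted p = 0.11 and 0.98).

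**Figure D4:**
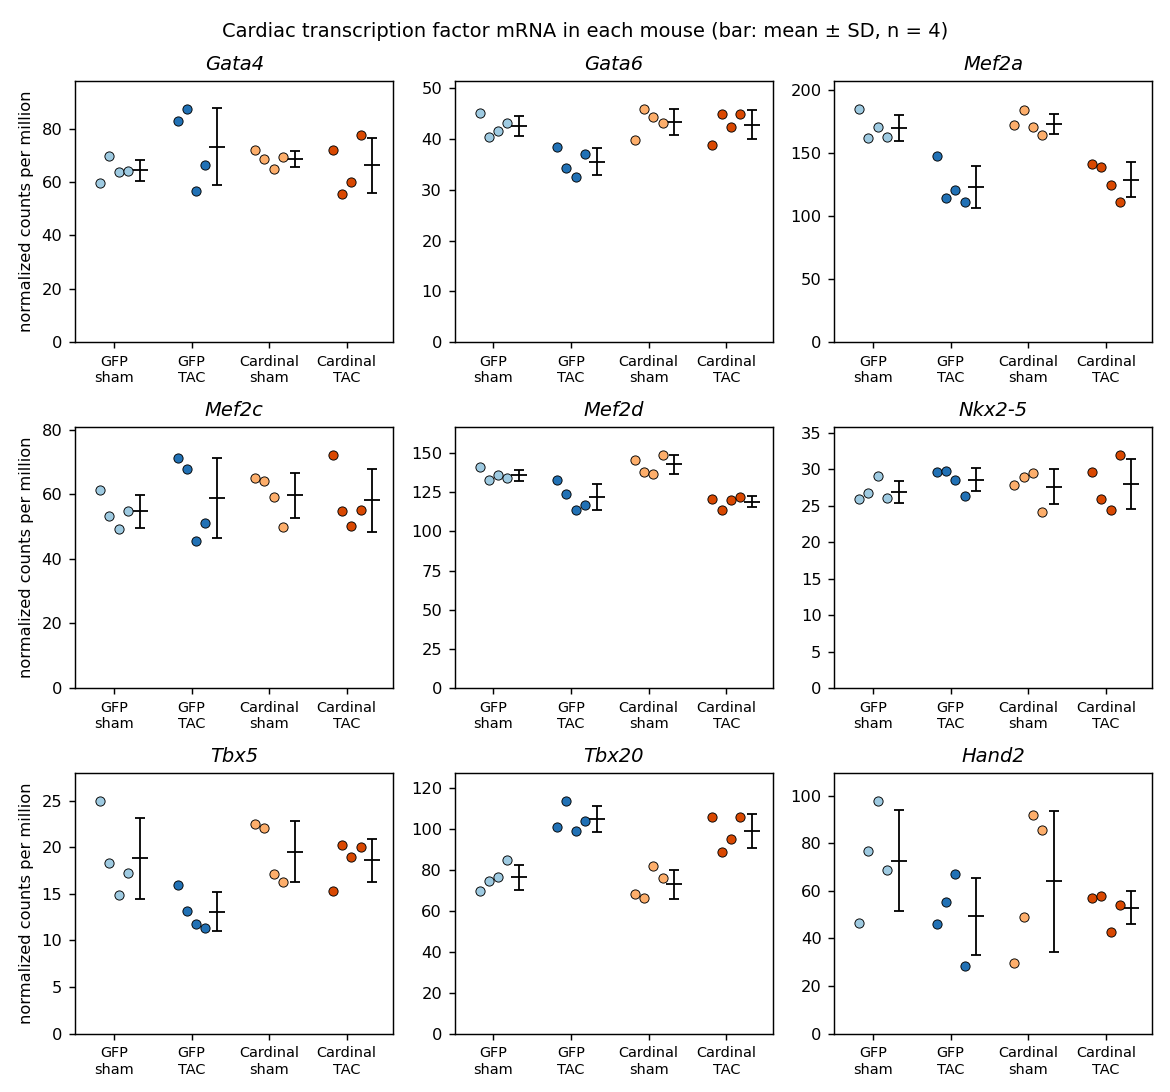
Normalized CPM of the 9 factors in each of the 16 mice (points, in order of replicate number), with the mean and SD of each group of 4 beside them; axes start at 0. Tbx20 is higher and Mef2a lower in both TAC groups, Gata6 is low in AAV9-GFP TAC alone, and Hand2 is scattered in every group but AAV9-Cardinal TAC.

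The effect of the Cardinal virus was examined by comparing AAV9-Cardinal with AAV9-GFP among TAC mice and among sham mice, and by testing the difference between the responses to TAC. None of the 9 factors passed in any of these with edgeR, while 0.101% of genes passed among TAC mice and 0.0119% both among sham mice and for the difference. At an unadjusted p below 0.05 the counts were 2, 0 and 1 of 9, and 2528, 437 and 1722 of all tested genes. The 2 factors were Gata6 and Tbx5. Among TAC mice Gata6 was 38.8 to 45.0 CPM with Cardinal and 32.5 to 38.4 CPM with GFP, the 1 factor of 9 without overlap, as were 6.77% of all genes. Its log2 fold change was 0.27 (SE 0.07, unadjusted p = 0.00093, adjusted p = 0.094). Tbx5 was 15.3 to 20.2 CPM with Cardinal and 11.3 to 15.9 CPM with GFP, with a log2 fold change of 0.51 (SE 0.16, unadjusted p = 0.0064, adjusted p = 0.16). In sham hearts their log2 fold changes were 0.02 and 0.05 (both adjusted p = 1), and no factor was without overlap there, against 2.36% of all genes.

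AAV9-Cardinal TAC mouse 1, which stood apart on fibroblast markers, had the lowest Gata6 and the lowest Tbx5 of its group. Without it the log2 fold change among TAC mice was 0.32 for Gata6 (adjusted p = 0.020) and 0.59 for Tbx5 (adjusted p = 0.068), and 535 genes passed in place of 17. With DESeq2 both factors passed with all mice (adjusted p = 0.0092 and 0.044), among 428 genes. This was the 1 of 8 other settings in which either passed, and adjusted p reached 0.47 for Gata6 and 0.63 for Tbx5. With 1 mouse left out, Gata6 passed in 1 of 16 refits (adjusted p up to 0.31) and Tbx5 in 0 (up to 0.39). The test of the difference between the responses is the one that asks whether TAC acted differently under the 2 viruses. It gave 0.24 (SE 0.09, 95% interval 0.05 to 0.44, adjusted p = 0.39) for Gata6 and 0.46 (SE 0.23, interval -0.03 to 0.94, adjusted p = 0.51) for Tbx5, so a difference was not shown for either. Without AAV9-Cardinal TAC mouse 1 it was 0.29 (adjusted p = 0.15) and 0.54 (adjusted p = 0.28). For the other factors the differences between the responses lay between -0.24 (Gata4, interval -0.61 to 0.13) and 0.29 (Hand2, interval -0.68 to 1.25), and all had adjusted p of at least 0.65. The summed cardiomyocyte markers of these 2 groups differed in the same direction (37500 to 41700 CPM with Cardinal, 30900 to 37300 CPM with GFP), and their part in the Gata6 and Tbx5 values was not tested.

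Other genes of the same families were mostly at or near 0 counts. Of 13 relatives, 5 were tested (Gata2, Tbx2, Tbx3, Tbx15 and Tbx18); Gata1, Nkx2-3, Nkx2-6 and Hand1 had no count in any library, and Gata3, Gata5, Mef2b and Tbx1 had at most 15. In AAV9-GFP 2 of the 5 rose with TAC, beside 8.49% of all tested genes. Tbx15, a mesenchymal T-box gene, averaged 0.446 CPM in sham and 3.84 CPM in TAC, a log2 fold change of 3.09 (SE 0.32, adjusted p = 2.7e-05). Its sham level was low under both viruses. The filter on low counts can keep a gene for the group where it is high. Tbx15 may have been tested only for its TAC level, so its place among the relatives that rose is not separate support. Tbx2, a T-box repressor of chamber genes in the embryo, averaged 5.59 and 8.18 CPM (0.55, SE 0.13, adjusted p = 0.0091). In AAV9-Cardinal Tbx15 alone rose, from a mean of 0.392 to 1.40 CPM (1.80, SE 0.36, adjusted p = 0.010, and 1.55 with adjusted p = 0.018 without TAC mouse 1), beside 3.1% of genes that rose. None of the 5 passed between the viruses with all mice. Among TAC mice Tbx15 was nearest to the threshold, at a log2 fold change of -1.45 (SE 0.27, adjusted p = 0.0503), and it passed without AAV9-Cardinal TAC mouse 1 (-1.70, adjusted p = 0.0073) or without AAV9-GFP TAC mouse 1 or 4. The ranges of Tbx2, Tbx15 and Tbx18 did not overlap there, 3 of 5 beside 6.77% of all genes, and all 3 were lower with Cardinal. The 8 fibroblast markers were also all lower there, with a median log2 fold change of -0.52 and none called. The part of fibroblasts in these values was not tested.

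Of 20 partners and cofactors, all tested, 4 rose and 4 fell with TAC in AAV9-GFP and 2 rose in AAV9-Cardinal, beside 17.4% and 6.48% of all tested genes called. Their median log2 fold change was -0.05 in both. Hopx, a homeodomain protein that does not bind DNA and restrains SRF, fell from 136 to 77.9 CPM in AAV9-GFP (group means, log2 fold change -0.80, SE 0.12, adjusted p = 0.00051). In AAV9-Cardinal Hopx averaged 130 and 108 CPM and did not pass (-0.27, adjusted p = 0.22, and -0.17 with adjusted p = 0.41 without TAC mouse 1). Its TAC mice there all lay below its sham mice. Groups were without overlap there for 6 of the 20 cofactors, beside 13.7% of all genes. Hdac4, a class IIa histone deacetylase that represses MEF2 factors, fell from 28.3 to 18.1 CPM in AAV9-GFP (-0.64, SE 0.15, adjusted p = 0.0081). Zfpm1, also called FOG1, a cofactor that binds GATA proteins, rose from 10.9 to 14.8 CPM (0.44, SE 0.08, adjusted p = 0.0022). Myocd, the SRF coactivator myocardin, fell from 51.6 to 39.1 CPM (-0.40, SE 0.13, adjusted p = 0.043), a call that was lost without AAV9-GFP sham mouse 2, 3 or 4, AAV9-GFP TAC mouse 1, 3 or 7, AAV9-Cardinal sham mouse 2 or any AAV9-Cardinal TAC mouse (adjusted p from 0.051 to 0.13). In AAV9-Cardinal the 2 that rose were Tead1 and Smyd1. Tead1, a TEA domain factor of muscle genes, went from 169 to 203 CPM (0.27, SE 0.06, adjusted p = 0.020) and also rose in AAV9-GFP, from 169 to 200 CPM (0.25, SE 0.06, adjusted p = 0.012). Smyd1, a muscle histone methyltransferase, went from 410 to 482 CPM (0.23, SE 0.06, adjusted p = 0.024), and in AAV9-GFP from 423 to 442 CPM without passing (0.07, adjusted p = 0.48). Without AAV9-Cardinal TAC mouse 1 Tead1 and Smyd1 were at 0.30 and 0.24 (adjusted p = 0.015 and 0.026), and 5 cofactors passed with TAC in AAV9-Cardinal in place of 2, beside 8.41% of all tested genes. The added 3, named after their values were seen, were Mrtfb, which rose, and Zfpm2 and Hdac4, which fell. The AAV9-Cardinal call of Tead1 was lost without AAV9-Cardinal sham mouse 1, 2 or 4 or TAC mouse 4 or 5, and the Smyd1 call without sham mouse 1 or 2 or TAC mouse 5 or 6 (adjusted p up to 0.072 and 0.076). No cofactor passed between the viruses with all mice, and without AAV9-Cardinal TAC mouse 1 Hopx was higher with Cardinal among TAC mice (0.57, adjusted p = 0.019, against 0.47 and an adjusted p of 0.10 with all mice).

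Of 24 genes known as targets of these factors, 23 were tested, and with TAC 6 rose and 8 fell in AAV9-GFP and 6 rose and 1 fell in AAV9-Cardinal, beside 17.4% and 6.48% of all tested genes called. Their median log2 fold change was -0.11 and -0.04. The 4 with the largest changes were the same in both viruses. Nppa, which encodes atrial natriuretic peptide, averaged 61.3 CPM in sham and 734 CPM in TAC with GFP (log2 fold change 3.58, SE 0.44, adjusted p = 8.1e-05) and 68.1 and 259 CPM with Cardinal (1.92, SE 0.41, adjusted p = 0.014). Nppb, the B-type peptide, averaged 75.0 and 291 CPM with GFP (1.96, SE 0.43, adjusted p = 0.0057) and 52.1 and 204 CPM with Cardinal (1.97, SE 0.43, adjusted p = 0.017). In AAV9-Cardinal both peptides lost their call without sham mouse 2 (adjusted p = 0.054 and 0.057), and Nppb also without TAC mouse 6 (0.050). Without TAC mouse 1 Nppa was at 1.64 and Nppb at 1.93 (adjusted p = 0.025 and 0.023). Ankrd1, an ankyrin repeat protein of sarcomere and nucleus, had log2 fold changes of 1.77 (adjusted p = 0.0032) and 1.24 (adjusted p = 0.049). The latter was lost without any AAV9-Cardinal sham mouse, AAV9-Cardinal TAC mouse 1, 5 or 6, AAV9-GFP sham mouse 2 or any AAV9-GFP TAC mouse, and without AAV9-Cardinal TAC mouse 1 it was 0.93 (adjusted p = 0.11). Xirp2, a protein of the intercalated disc and a MEF2 target, had log2 fold changes of 1.54 (adjusted p = 8e-06) and 1.24 (adjusted p = 0.00052), the latter 1.31 without TAC mouse 1 (adjusted p = 0.00037). The 1 target that fell in AAV9-Cardinal, named after its values were seen, was Atp2a2, the sarcoplasmic calcium pump (-0.25, SE 0.07, adjusted p = 0.046, beside -0.55 with GFP, adjusted p = 9.7e-05). The AAV9-Cardinal call of Atp2a2 was lost in 13 of the 16 refits that leave out 1 mouse, with -0.22 (adjusted p = 0.084) without TAC mouse 1. Without that mouse 5 targets rose and 1 fell with TAC in AAV9-Cardinal, beside 8.41% of all tested genes called. The 1 that fell there, also named after its values were seen, was Gja1 (-0.67, adjusted p = 0.029). With all mice Gja1 was at -0.40 (adjusted p = 0.295). 

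No target passed between the viruses or for the difference between the responses with all mice. Among TAC mice 5 of 23 did not overlap, beside 6.77% of all genes. Nppa was at -1.50 on the log2 scale (SE 0.40, adjusted p = 0.10), or 0.352-fold, and at -1.66 (SE 0.57, adjusted p = 0.36) for the difference. These results turned mainly on 1 mouse. It was singled out by fibroblast markers, which also changed with TAC, so calls without it are not separate support. Without mouse 1 of AAV9-Cardinal TAC, 8 of 23 targets passed among TAC mice, beside 3.13% of all tested genes. Nppa (-1.79, adjusted p = 0.037) and Des, the muscle intermediate filament desmin (-0.27, adjusted p = 0.026), were lower with Cardinal. The other 6, named like Des after their values were seen, were higher: Tnnt2, Tnni3 and Myl2 of the sarcomere, Atp2a2, Corin, the protease that activates natriuretic peptide, and the myospryn gene Cmya5. Their log2 fold changes ran from 0.29 to 0.48 (adjusted p from 0.011 to 0.042). Atp2a2 passed as well when AAV9-GFP TAC mouse 1 was left out instead. Tnnt2 also passed for the difference (0.37, adjusted p = 0.038). The summed cardiomyocyte markers also differed between these groups (above), and their part was not tested. Of the 24 targets, 6 are also in the cardiomyocyte or atrial marker lists whose sums are given above.

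**Figure D5:**
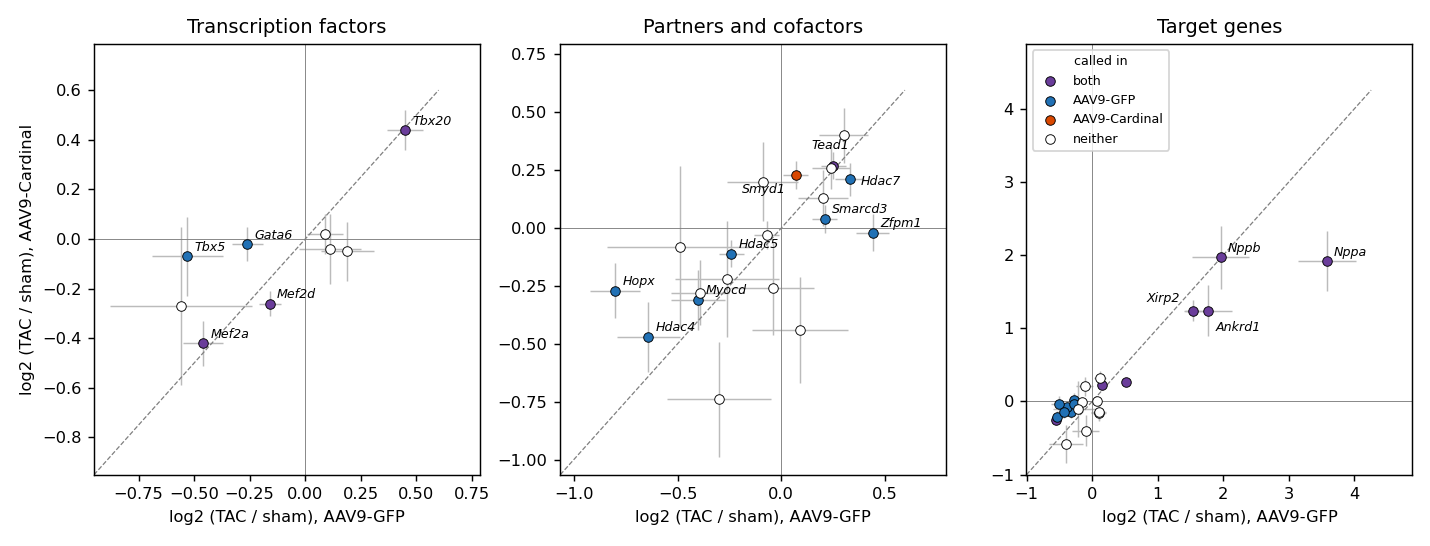
Log2 fold change with TAC in AAV9-GFP (horizontal) and AAV9-Cardinal hearts (vertical) for the 9 factors, 20 partners and cofactors and 23 tested targets, with standard errors (gray lines) and the line of equal change (dashed). Mef2a, Mef2d and Tbx20 lie near the dashed line, Gata6 and Tbx5 lie near 0 on the vertical axis, and Nppa lies below the line at 3.58 and 1.92.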

How the data were processed

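Libraries of poly(A) RNA, 1 per mouse (16 mice, heart apex), were read from a single end over 50 bases on the DNBSEQ platform. The submitters' processing notes name FastQC, HISAT2 2.1.0, edgeR 3.26.1 and the build GRCm38, with no roles. The counting program, annotation, strand setting and treatment of reads with several matches are not given in the sources used here. The deposited values were whole-number counts per Ensembl gene, made by the authors, and were not normalized.

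Of 55573 gene identifiers, 55480 matched GENCODE M21. The 9 factors and the lists of relatives, cofactors, targets and markers were chosen with earlier results of these data known. Counts were filtered with filterByExpr over the 4 groups, scaled by TMM and fitted in 1 quasi-likelihood model of 4 group means in edgeR 4.0.16 (R 4.3.3), with Benjamini-Hochberg adjustment over 16857 genes and a threshold of 0.05. CPM are normalized with these factors. Standard errors come from the F statistic, and 95% intervals from its t distribution. Libraries of 16441997 to 21904589 counts put 3 counts at 0.137 to 0.182 CPM, and intervals reflect the spread between mice. The labels do not say which litter or day a mouse came from. No 2 libraries of a group agreed within sampling noise (chi-square per degree of freedom from 5.1 to 14.9 in 24 pairs).

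Named in the text are all 9 factors and, of relatives, cofactors and targets, at most 4 genes per comparison with the largest change among those that passed. Genes or comparisons given beyond this rule were added after their values were seen. Alternatives were DESeq2 1.42.0, RLE scaling, no filter, at least 1 CPM in at least 4 mice, only the 8 mice compared, mitochondrially encoded genes left out, an offset for GC content, the replicate number as a block, and each mouse left out. The model was also run on simulated counts drawn with its own estimates of spread, with changes placed in AAV9-GFP TAC only. Such a run cannot show how the model handles a shared litter or day or dependence on 1 mouse. Promoter motifs were searched in RefSeq windows of GRCm38.p6.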

Additional observations from a re-analysis of the deposited data

How the results depend on the processing

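Mef2a and Tbx20 with TAC in AAV9-GFP passed under all 8 other settings and without any single mouse, with log2 fold changes from -0.55 to -0.41 and from 0.41 to 0.50. The labels do not say that replicate numbers pair the mice, so they were not taken to. Of 16 same-numbered pairs across groups, 4 had deviations correlated above 0.1, all between mice numbered 1 (range of the 16 -0.04 to 0.21). The median was 0.05, beside -0.01 for differently numbered pairs, and 5 of 13 mice correlated best with their own number. The level expected without pairing was not worked out, so these values do not exclude a shared litter or day. With the replicate block, TAC against sham called 2 factors in AAV9-GFP (5 without it) and 0 in AAV9-Cardinal (3 without it, where genes called went from 1092 to 31). The factors lost in AAV9-GFP were Gata6, Mef2d and Tbx5. Numbers 5, 6 and 7 each occur in 1 mouse alone, so the block takes those mice out of the comparisons. AAV9-Cardinal TAC then rests on mice 1 and 4, so the fall in calls does not show what pairing would do. The block also moved the genes called between the viruses from 17 to 0 in TAC, from 2 to 1 in sham and from 2 to 1 for the difference. A fit on only the 8 mice compared called 3 factors in AAV9-GFP and 3 genes between the viruses in TAC. With no filter on low counts 615 genes passed with TAC in AAV9-Cardinal and 3 between the viruses in TAC. Between the viruses in TAC, DESeq2 called 428 genes and 2 factors, the stricter filter 35 genes, and the table without mitochondrially encoded genes 30. DESeq2 called 4 genes between the viruses in sham and 137 for the difference. The cause of these shifts was not tested.

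Over the 16 refits that each omit 1 mouse, the factors called with TAC were 3 to 5 in AAV9-GFP and 2 to 3 in AAV9-Cardinal, where 384 (without TAC mouse 5) to 1436 (without TAC mouse 1) genes passed. Between the viruses 0 to 1 factors and 0 to 535 genes passed in TAC, the highest without AAV9-Cardinal TAC mouse 1, and 1 to 3 genes in sham. For the difference 2 to 79 genes passed, again highest without that mouse.

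The sign turned in 45 refits of changes that had not passed, all within 0.12 of 0. With the GC offset these were Nkx2-5 with TAC in AAV9-GFP (-0.04), Gata6 with TAC in AAV9-Cardinal (0.01), Mef2d and Nkx2-5 between the viruses in TAC (0.02 and 0.10) and Nkx2-5 for the difference (0.08). With the block they were Mef2c and Hand2 with TAC in AAV9-Cardinal (0.11 and 0.12), Mef2c between the viruses in TAC (0.06) and Tbx20 for the difference (0.01; 0.00 with no filter). Mice left out gave ranges, for TAC in AAV9-Cardinal, of -0.13 to 0.02 (Gata4), -0.06 to 0.03 (Gata6), -0.16 to 0.03 (Mef2c), -0.05 to 0.08 (Nkx2-5) and -0.14 to 0.02 (Tbx5). Between the viruses in TAC they were -0.14 to 0.08 (Mef2c), -0.06 to 0.02 (Mef2d), -0.10 to 0.03 (Nkx2-5) and -0.09 to 0.29 (Hand2). In sham they were 0.00 to 0.06 (Gata6), -0.01 to 0.07 (Mef2a), -0.05 to 0.22 (Tbx5) and -0.42 to 0.06 (Hand2). For the difference they were -0.01 to 0.14 (Mef2a) and -0.06 to 0.05 (Tbx20).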

Other observations

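For each factor the genes with the most similar pattern over the 16 mice were taken as those with the largest Pearson correlation of log2 CPM among 14290 other tested genes averaging 1 CPM or more. These values describe the libraries and were not tested, since the points share 4 groups and their library. Tbx20 was closest to Sorbs2 (r = 0.97), Nppb (0.96) and Col4a1 (0.96), and the correlations of the deviations from the group means were 0.84, 0.83 and 0.84. Nppb encodes B-type natriuretic peptide and Col4a1 a basement membrane collagen. Mef2a was closest to Cep128 (0.98), with 0.91 for the deviations.

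Gata6 was closest to Polr2m (0.93), Mef2d to Dis3l2 (0.93) and Tbx5 to Cpeb3 (0.89). Gata4 was closest to Plcd3 (0.86), Hand2 to Siah2 (0.86) and Nkx2-5 to Gm8069 (0.85). Mef2c was closest to Mtss1 (0.88), followed by the chemokine genes Ccl21a and Ccl21b (0.87 and 0.85), near-identical copies whose reads are hard to assign. Over the 36 pairs of the 9 factors, r ran from -0.90 (Mef2a with Tbx20) to 0.82 (Mef2a with Mef2d). For the deviations from the group means these pairs had -0.47 and 0.30, and Gata4 with Mef2d had 0.64.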
